A study of Mus musculus with 4 samples.

Results

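The type I interferon response genes are a set of 39 mouse genes that cells switch on when they sense interferon alpha or beta. The members were given by name, and every array probe of each gene was taken. Of the 39 genes, 37 had a probe, 56 probes in all, out of 22911 named genes and 56605 non-control probes on the array. The other two, Mx1 and Mx2, had no probe that could be named through the gene table. Each gene was described by its probe with the highest mean level over the arrays, and the other probes of 17 members were used as a check.

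The samples were CD8 T cells, the cytotoxic lymphocytes, sorted from the spleens and lymph nodes of untreated PD-1-/- mice of the C57BL/6 strain, aged 1 to 3 months. PD-1 is an inhibitory receptor of activated T cells, and its gene was deleted in every sample, with no PD-1-positive sample beside them. The cells were split by CD44, an adhesion receptor that stays high on antigen-experienced T cells, and CD62L, the selectin that brings T cells into lymph nodes. P1 was CD44low CD62Lhigh, P2 was CD44high CD62Lhigh, P3 was CD44high CD62Llow and P4 was CD44low CD62Llow. Each subset was measured on 1 single-colour array, so no difference below has a replicate check or a test, and how many mice stood behind each array was not given in the sources used here.

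Type I interferons bind a receptor of the IFNAR1 and IFNAR2 chains, whose kinases JAK1 and TYK2 activate STAT proteins, STAT2 among them. These join IRF9 in the complex ISGF3, which binds the interferon-stimulated response element (ISRE) of its target genes and induces antiviral effectors, sensors and feedback proteins. In uninfected animals a low constant interferon signal is known to keep part of this programme on in resting lymphocytes, and interferon gamma induces some of the same genes through its own receptor.

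Levels are log2 processed signals relative to the 75th percentile of the same array, so 0 is the signal at that percentile and 1 unit is a 2-fold difference. Levels of different probes are not comparable with each other. The 75th percentile signal was 550 on the P3 array and between 315 and 333 on the others, all 4 arrays lay on 1 slide, and 27827 to 30811 probes were well above background. All 9 measured CD8 T cell markers were above background in every subset, and none differed 2-fold from P1. Repeated spots of other probes gave a 95% half-width of 0.18 for a difference between single spots at levels of 0 or more, 0.37 between -3 and 0, and 0.63 below -3. That width covers spot noise only, not the spread between animals or sorts.

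Markers of other cells differed most on the P3 array. Of 12 markers of type 1 conventional dendritic cells, 12 were above background in P3, against 4 in P1, 8 in P2 and 7 in P4, and their summed signal, in units of the 75th percentile, was 114 in P3 and 3.22 to 11.7 elsewhere. Among 11 measured genes of type 2 dendritic cells and class II presentation, 9 exceeded their P1 level by 2-fold or more in P3, as did 11 of 16 macrophage and monocyte genes, 6 of 10 plasmacytoid dendritic cell genes, 6 of 10 B cell genes and 2 of 4 red cell and platelet genes. The plasmacytoid markers Siglech (-1.24) and Ccr9 (-2.43), the latter also a T cell homing receptor, were lower in P3 than in P1. Natural killer cell genes, several of which effector CD8 T cells also use, were at least 2-fold higher than in P1 for 7 of 9 in P2, 9 of 10 in P3 and 7 of 9 in P4. Against P1, P4 was at least 2-fold higher for 4 of 7 markers of type 1 dendritic cells and 4 of 8 of the class II list, and P2 for 4 of 8 and 3 of 8. Dendritic cells and macrophages also use interferon response genes, and the part of such cells in the values below was not tested. In bulk RNA, fewer cells that express a gene and less RNA of that gene per cell cannot be told apart.

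The promoters of 30 of the 37 members could be read in a RefSeq table (build GRCm38.p6), as the 250 bases before the transcription start. An ISRE core, GAAANNGAAA on either strand, lay in 9 of these 30 windows, compared with 3.46% of 27025 genes. The 9 genes were Bst2, Ifit1, Ifit3, Isg15, Oas1a, Oas3, Rsad2, Stat2 and Trim30a. The gamma-activated site TTCNNNGAA, the letters bound by STAT dimers, lay in 7 of 30 windows (23.3%), compared with 8.13% of all genes, and in Bst2 it overlapped an ISRE match. A match describes letters in this window and is not evidence of binding.

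Windows are printed for 4 of the 6 genes with a 2-fold difference between subsets (Oasl1, Oasl2, Oas3 and Rsad2; the other two are Oas2 and Usp18), for Oas1a as a neighbour in the OAS cluster, and for Isg15 and Ifit1 as members that stayed within 2-fold in every comparison. They run 5′ to 3′ on the strand of the gene, and capitals mark ISRE matches. They lie at chr5:114922990-114923239 (plus strand, Oasl1), chr5:114896684-114896933 (plus, Oasl2), chr5:120777660-120777909 (minus, Oas3), chr5:120907526-120907775 (minus, Oas1a), chr12:26456453-26456702 (minus, Rsad2), chr4:156200819-156201068 (minus, Isg15) and chr19:34640639-34640888 (plus, Ifit1).
Oasl1: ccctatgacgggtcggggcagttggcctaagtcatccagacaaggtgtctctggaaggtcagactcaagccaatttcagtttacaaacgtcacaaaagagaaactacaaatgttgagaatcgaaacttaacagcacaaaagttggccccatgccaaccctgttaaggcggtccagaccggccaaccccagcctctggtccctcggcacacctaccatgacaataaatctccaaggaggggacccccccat
Oasl2: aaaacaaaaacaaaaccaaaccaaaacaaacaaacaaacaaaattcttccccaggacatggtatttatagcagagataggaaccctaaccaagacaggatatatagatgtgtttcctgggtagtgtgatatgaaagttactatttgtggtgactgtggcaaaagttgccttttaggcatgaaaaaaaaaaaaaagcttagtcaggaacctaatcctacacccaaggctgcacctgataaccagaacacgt
Oas3: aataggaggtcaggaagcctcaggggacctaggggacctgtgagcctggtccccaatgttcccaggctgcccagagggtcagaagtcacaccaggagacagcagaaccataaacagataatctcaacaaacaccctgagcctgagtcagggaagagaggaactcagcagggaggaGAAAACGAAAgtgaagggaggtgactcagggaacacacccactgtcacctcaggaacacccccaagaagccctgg
Oas1a: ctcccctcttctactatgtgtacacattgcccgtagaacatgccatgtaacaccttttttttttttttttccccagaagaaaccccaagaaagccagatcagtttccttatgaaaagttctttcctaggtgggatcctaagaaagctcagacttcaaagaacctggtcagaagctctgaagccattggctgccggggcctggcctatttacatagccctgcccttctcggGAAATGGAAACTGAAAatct
Rsad2: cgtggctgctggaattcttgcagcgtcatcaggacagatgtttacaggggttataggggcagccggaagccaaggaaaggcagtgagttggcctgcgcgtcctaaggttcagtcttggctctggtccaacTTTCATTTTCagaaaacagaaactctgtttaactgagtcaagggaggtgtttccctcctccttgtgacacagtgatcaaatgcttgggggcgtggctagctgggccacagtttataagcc
Isg15: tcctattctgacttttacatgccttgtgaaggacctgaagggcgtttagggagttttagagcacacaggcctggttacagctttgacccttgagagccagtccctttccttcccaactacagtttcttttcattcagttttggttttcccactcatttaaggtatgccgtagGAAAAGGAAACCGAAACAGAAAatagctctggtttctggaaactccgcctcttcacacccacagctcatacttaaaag
Ifit1: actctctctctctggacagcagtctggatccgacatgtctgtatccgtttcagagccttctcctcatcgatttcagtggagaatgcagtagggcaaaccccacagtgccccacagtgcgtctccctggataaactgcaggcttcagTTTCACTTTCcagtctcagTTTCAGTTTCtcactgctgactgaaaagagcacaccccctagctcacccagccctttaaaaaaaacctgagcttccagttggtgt
Oasl1 and Oasl2, which lie next to each other, had 0 matches in their windows, Oas3 and Rsad2 had 1 each, Oas1a and Ifit1 had 2 and Isg15 had 3 overlapping ones.

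Almost all members were on in all 4 subsets. Of 37 genes, 36 were well above background on every array, where 11835 of all 22911 named genes were. The exception, Ifi44, was dim throughout and not well above background in P2. The range over the 4 arrays was under 2-fold for 30 of these 36 genes (83.3%), close to the 81.7% among 11835 genes above background on all arrays, with a median range of 0.53 against 0.49. P1 held the highest level for 20 of the 36 (55.6%, against 36.7% of all genes) and the lowest for none (0, against 16.6%). P3 was highest for 13 (36.1%, against 29.1%), P2 for 2 (5.56%, against 17.5%) and P4 for 1 (2.78%, against 16.7%). The lowest level lay in P2 for 16 (21.1% of all genes), in P4 for 11 (19.3%) and in P3 for 9 (43.0% of all genes).

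**Figure D1:**
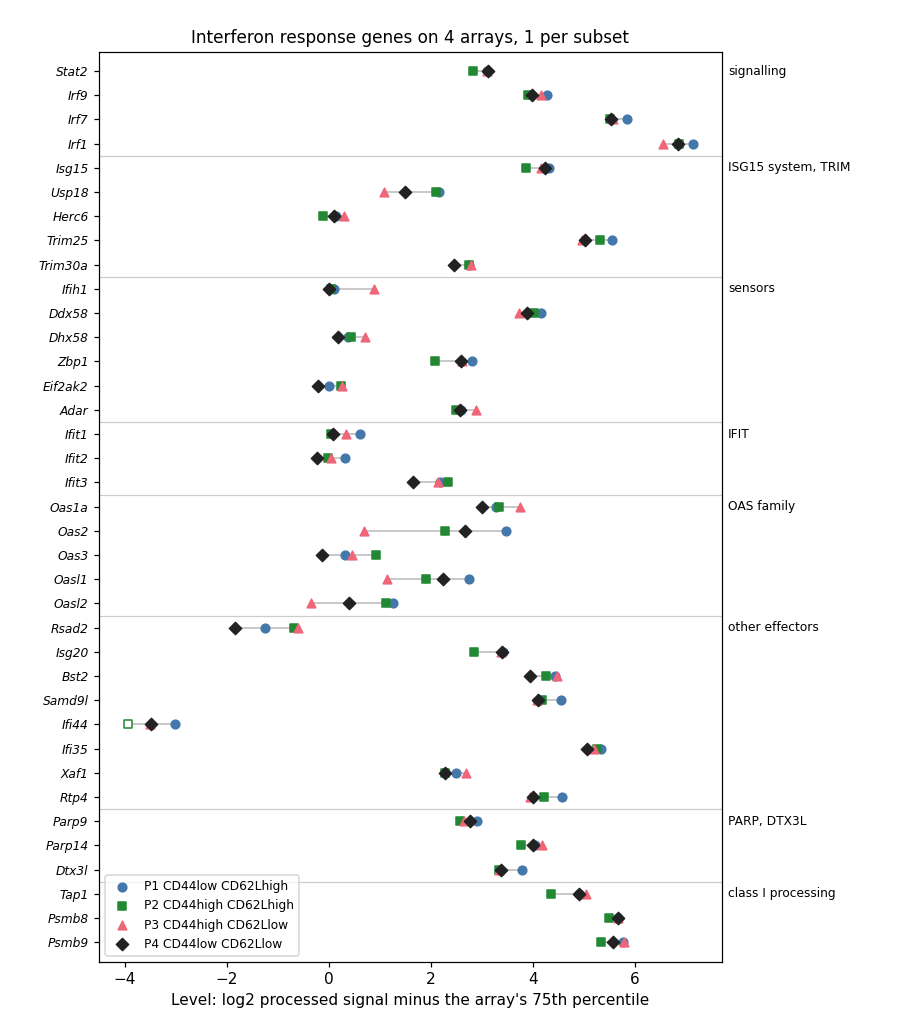
Levels of the 37 measured members on the 4 arrays, 1 per subset, as log2 signal relative to the 75th percentile of the array (x axis), with genes in rows grouped by role; the grey bar joins the lowest and highest array and an open symbol is not well above background. Most bars are shorter than 1 unit, and those of Oas2, Oasl1, Oasl2 and Usp18 extend furthest to the left in P3.

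The shift between the CD44low subsets, P4 and P1, was small and mostly in 1 direction. Among the 37 members, 35 were lower in P4, from -0.85 for Oasl2 to 0.02 for Stat2, where 58.8% of 13160 genes were lower. The median difference was -0.29, against -0.07 over all genes, and 25 of 37 members were lower by more than spot noise (27.2% of all genes) while 0 were higher (17.5%). No member reached 2-fold (0 of 37, against 7.2% of all genes, 5.43% higher and 1.77% lower). The count of lower members was 29 of 37 relative to the median of all genes and 29 of 36 with the authors' own processed values, and the median difference stayed between -0.29 and -0.19 under all 10 other settings.

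P2 also lay below P1 for most members. There, 31 of 37 were lower (60.1% of all genes), with a median of -0.28 against -0.06, and by more than spot noise 21 of 37 were lower (21.2% of all genes) and 3 higher (14.3%). Oas2 alone was at least 2-fold apart, 2.31-fold lower in P2 (1 of 37, where 7.28% of 12954 genes were apart, 4.76% higher and 2.52% lower). Both differences are taken from the same P1 array, so they are not separate measurements of a shift from P1.

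P3 against P1 was mixed, with a few large differences. The median was -0.12, against -0.10 over all genes, and it turned to 0.02 with quantile normalization and to 0.05 with the authors' values. Of 37 members, 23 were lower (57.6% of all genes), 16 and 20 of 36 being lower and higher with the authors' values. By more than spot noise, 15 of 37 were lower (37.2% of all genes) and 7 higher (26.8%). At least 2-fold lower were 4 members, Oas2, Oasl1, Oasl2 and Usp18, and 0 were higher, where 6.98% of 14089 genes were lower, 12.5% higher and 19.5% apart.

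P4 differed from both CD44high subsets in few members. Against P2 the median was 0.01 (18 of 37 lower, 50.4% of all genes), and 2 members, Oas3 and Rsad2, were at least 2-fold lower in P4 (8.24% of 13125 genes apart, 4.78% higher and 3.45% lower). Against P3 the median was -0.13 (21 of 37 lower, 48.0% of all genes), and 3 members were apart (13.1% of 13990 genes), with Oas2 and Oasl1 higher in P4 (3.98% of all genes) and Rsad2 lower (9.07%). Between the CD44high subsets, P3 minus P2 had a median of 0.09 (12 of 37 lower, 53.5% of all genes), and 3 members were at least 2-fold lower in P3, namely Oas2, Oasl2 and Usp18 (16.2% of 14012 genes apart, 10.6% higher and 5.61% lower). By more than spot noise, P4 minus P2 had 13 of 37 members lower (21.7% of all genes) and 9 higher (20.6%), P4 minus P3 had 13 lower (27.4%) and 5 higher (28.0%), and P3 minus P2 had 10 lower (31.2%) and 16 higher (27.8%). In 8 of 37 members P4 lay below P1 while P3 lay above P2, each by more than spot noise, as did 2.3% of 12814 genes. With both directions summed, the share of members at least 2-fold apart was below the share of all genes in each of the 6 comparisons. For lower values alone it was above that share in P3 minus P1, P3 minus P2, P4 minus P2 and, with 1 gene, P2 minus P1, and for higher values alone in P4 minus P3, on 1 to 4 members each.

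**Figure D2:**
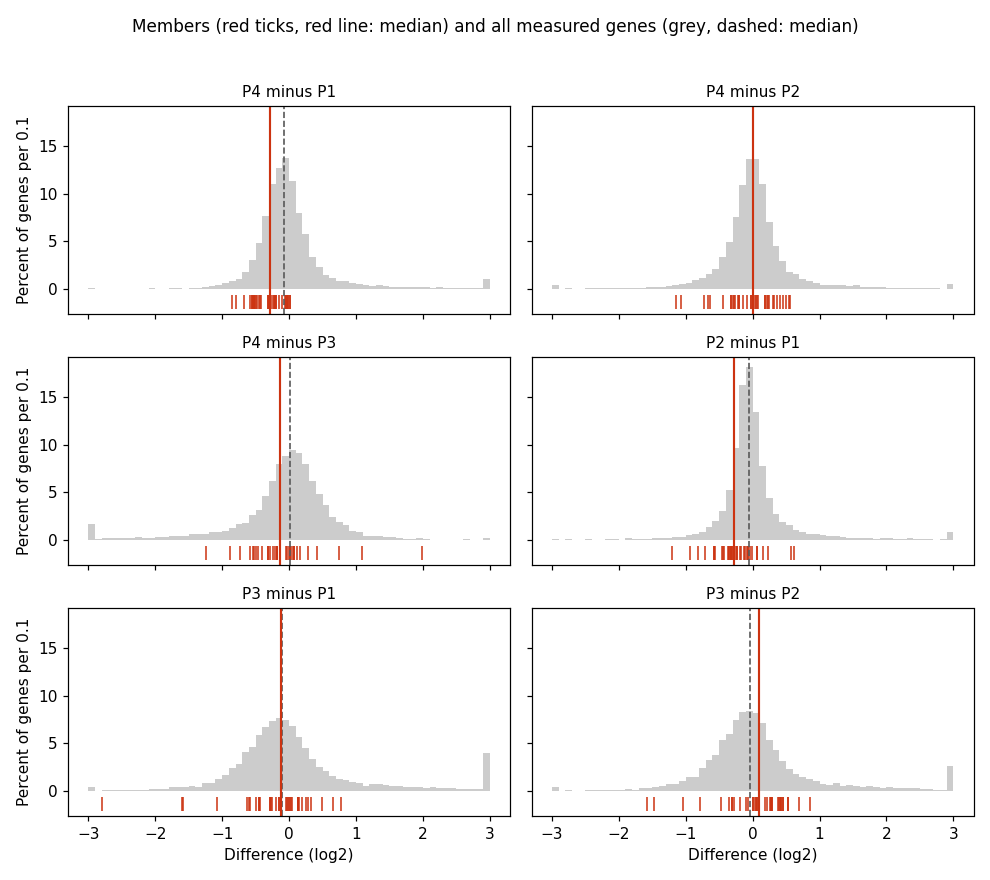
Differences of the members (red ticks, with the median as a red line) over the distribution of all measured genes (grey bars, percent of genes per 0.1 log2 unit, dashed line at their median) in the 6 pairs of subsets; values beyond 3 are stacked at the edges. The red line lies left of the dashed line in P4 minus P1 (-0.29 against -0.07) and P2 minus P1 (-0.28 against -0.06).

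The transcription factors that carry the interferon signal were strongly on and nearly level. STAT2, a subunit of ISGF3, had levels of 3.10 for P1, 2.82 for P2, 3.10 for P3 and 3.12 for P4. IRF9, the DNA-binding subunit of ISGF3, had 4.27, 3.90, 4.16 and 3.98. Irf7, the inducible factor that amplifies interferon gene transcription, stood at 5.85 in P1 and at 5.52 to 5.57 in the other three subsets. Irf1, a factor that interferon gamma induces strongly, had 7.15, 6.86, 6.55 and 6.84. On these probes P1 was highest for Irf9, Irf7 and Irf1, by at most 0.60, while the second Irf9 probe was highest in P3 (3.09, against 2.94 in P1). P4 minus P1 was -0.30 for Irf9, -0.32 for Irf7 and -0.31 for Irf1. Their second probes also gave a P4 below P1 (-0.10, -0.22 and -0.03), which for Irf9 and Irf1 is within spot noise.

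In the ISG15 system, the modifier and its protease differed in pattern. Isg15, a ubiquitin-like protein that is joined to other proteins in infected cells, had levels of 4.31 for P1, 3.87 for P2, 4.16 for P3 and 4.24 for P4. Usp18, which removes ISG15 and also blocks the IFNAR2 chain as a feedback inhibitor, had 2.16, 2.11, 1.08 and 1.49 (processed signals 1480, 1440, 1160 and 883). Usp18 was therefore lower in both CD62Llow subsets than in both CD62Lhigh ones, 2.11-fold lower in P3 than in P1 and 1.59-fold lower in P4. It has 1 probe, whose P1 spot lay in a locally bright area of the array, and its P3 minus P1 difference ranged from -1.08 to -0.97 over the other settings that kept it. P3 minus P2, which does not use the P1 spot, was -1.04, and fell just under 2-fold with normexp background correction (-0.95), with the authors' values (-0.99) and relative to the median of all genes (-0.99).

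Herc6, the main ligase for ISG15 in the mouse, stayed between -0.11 and 0.29. Trim25, a ligase that activates the sensor RIG-I, had 5.55, 5.32, 4.97 and 5.03, but its dimmer second probe was higher in P4 than in P1 (0.33), so its direction is uncertain. Trim30a, a restraint on inflammatory signalling, had 2.75, 2.74, 2.78 and 2.46; it has a near-identical neighbour, Trim30d, whose RNA the probe may share.

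Of the 6 sensor genes for viral nucleic acid, 4 had their highest level in P3, as did 29.1% of all genes. Ifih1 encodes MDA5, a sensor of long double-stranded RNA, and had levels of 0.11 for P1, 0.04 for P2, 0.89 for P3 and 0.01 for P4. P3 alone stood apart, 1.72-fold above P1 and 1.84-fold above P4. Dhx58 (LGP2, a regulator of MDA5) followed the same order at the top, with 0.38, 0.44, 0.71 and 0.18. Adar, the enzyme that edits double-stranded RNA and keeps it from these sensors, had 2.59, 2.50, 2.88 and 2.57. Its P1 spot lay in a locally bright area. Its second probe gave 0.00 for P3 minus P1, against 0.29.

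Ddx58 (RIG-I, the sensor of 5′-triphosphate RNA) ran the other way, with 4.16, 4.03, 3.73 and 3.88, and each of its 4 probes gave a P3 below P1, from -0.74 to -0.41. Zbp1, a sensor of Z-form nucleic acid that can trigger necroptosis, was lowest in P2, with 2.81, 2.09, 2.62 and 2.59, and its second probe gave the same order for P2 against P1 (-0.50, beside -0.71). Eif2ak2, the kinase PKR that stops translation, was within 0.46 over all subsets, at 0.01, 0.24, 0.26 and -0.21. Of the 6 sensor genes, 2 were lower in P3 than in P1 (median 0.27), where 57.6% of all genes were lower. All 6 were lower in P4 than in P1 (median -0.21), where 58.8% of all genes were lower.

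The IFIT genes encode antiviral proteins, among them IFIT1, which binds foreign RNA caps and blocks translation of that RNA. All 3 genes were lowest or near lowest in P4. Ifit1 had levels of 0.62, 0.04, 0.33 and 0.08 from P1 to P4. For Ifit2 they were 0.32, -0.02, 0.04 and -0.23, and for Ifit3 they were 2.18, 2.34, 2.15 and 1.66. P4 was below P1 by a similar amount in each, with differences of -0.54, -0.55 and -0.52, all beyond spot noise and under 2-fold. Of all genes, 27.2% were lower beyond spot noise in this pair. Ifit3 has a close copy, Ifit3b, whose own probe read -0.42, 0.11, 0.03 and -0.95, and the probes may share RNA.

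The OAS family held the largest differences. OAS enzymes make 2′-5′ oligoadenylate on double-stranded RNA, which activates RNase L, and the OAS-like proteins add ubiquitin-like domains. Oas2 had levels of 3.48 for P1, 2.27 for P2, 0.69 for P3 and 2.68 for P4, from processed signals of 3710, 1610, 887 and 2020. The raw signal was thus lowest on the array with the highest 75th percentile. P3 was 6.91-fold below P1, a difference matched or passed by 70 of 14089 genes, 3.00-fold below P2 and 3.97-fold below P4. A second Oas2 probe was not well above background on any array and gives no check.

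Oasl1, which limits translation of Irf7, had 2.74, 1.91, 1.14 and 2.23, so that P3 was 3.03-fold below P1 and 2.13-fold below P4. Its second probe gave nearly the same differences, with -1.51 for P3 minus P1 beside -1.60, -0.84 for P2 minus P1 beside -0.82 and 1.20 for P4 minus P3 beside 1.09. With normexp background correction P4 minus P3 was 0.92, under 2-fold. Oasl2, the neighbouring gene, which helps activate RIG-I, had 1.25, 1.13, -0.35 and 0.40. P3 was 3.02-fold below P1 and 2.78-fold below P2, and P4 lay between, 1.80-fold below P1. In P2 the pair differed, since Oasl1 was 1.77-fold and Oasl2 1.08-fold below P1.

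The remaining OAS genes did not share this pattern. Oas3, which sits beside Oas2 in the same gene cluster and favours long RNA, had 0.32, 0.93, 0.46 and -0.13, highest in P2 and 2.09-fold lower in P4 than in P2, a difference of -1.07 that was -0.84 with normexp background correction. Oas1a had 3.27, 3.34, 3.75 and 3.01, highest in P3, where its spot lay in a locally bright area, and a close copy, Oas1g, may share its RNA. Against P1, P3 was thus lower for 3 of the 5 family members (57.6% of all genes). It was higher for Oas1a (0.49) and Oas3 (0.14, within spot noise). P4 was below P1 for all 5, from -0.85 to -0.26, where 58.8% of all genes were lower. Oas2, Oasl1, Oasl2 and Usp18 were thus low on the array where the antigen-presenting cell markers were high, and the part of those cells in the P3 values was not tested.

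**Figure D3:**
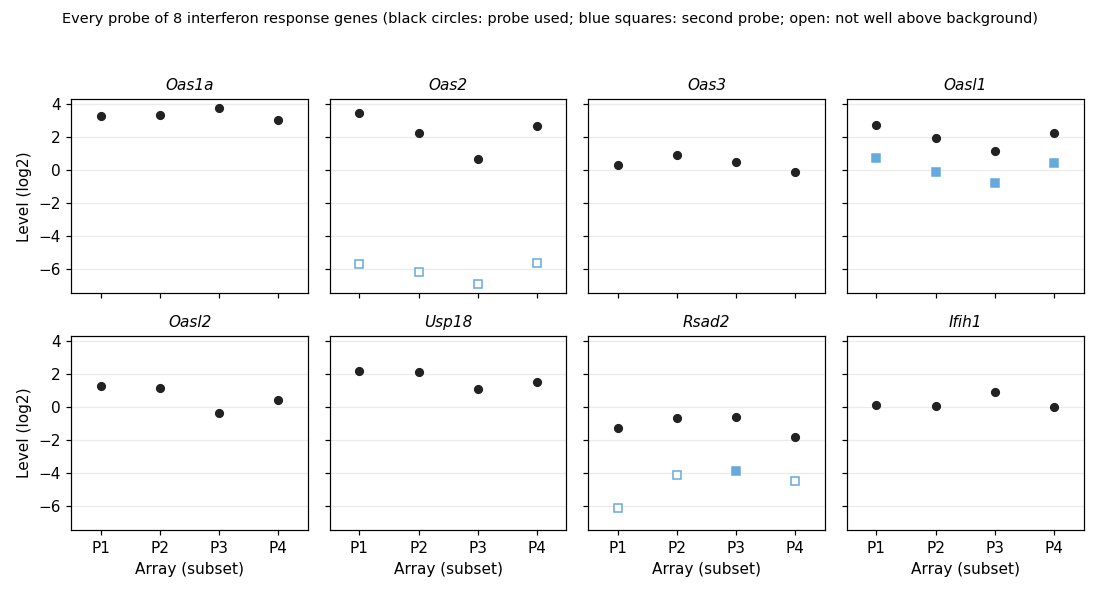
Levels (log2, y axis) of every probe of the 5 OAS family genes, Usp18, Rsad2 and Ifih1 on the 4 arrays (x axis); black circles are the probe used, blue squares the second probe, and open symbols are not well above background. Oas2 goes from 3.48 in P1 to 0.69 in P3, both Oasl1 probes are lowest in P3, and Oas1a, Oas3 and Ifih1 are not.

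Among other antiviral effectors, Rsad2 varied most. Rsad2 (viperin) makes a modified nucleotide that stops viral polymerases, and its levels were -1.26 for P1, -0.69 for P2, -0.60 for P3 and -1.84 for P4, from low signals of 139, 206, 363 and 88.2. P4 was lowest, 2.21-fold below P2 and 2.36-fold below P3, while the CD44high subsets differed by 0.09. With normexp background correction these differences were -0.75 and -0.78, under 2-fold, and with the mean over both probes P4 minus P3 was -0.83. The second Rsad2 probe was well above background in P3 only.

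Bst2 (tetherin, which holds budding virus at the cell surface and is also a plasmacytoid dendritic cell marker) had 4.43, 4.26, 4.48 and 3.94, lowest in P4. Isg20, an RNA exonuclease, was lowest in P2, with 3.42, 2.85, 3.38 and 3.39, and its second probe gave -0.68 for P2 minus P1 beside -0.57. Samd9l, which restrains proliferation and translation, had 4.55, 4.19, 4.09 and 4.11. Rtp4, a receptor chaperone with antiviral activity, had 4.57, 4.22, 3.94 and 4.01, so that for this pair of genes P1 stood above the other three subsets.

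Ifi35 was nearly level, at 5.34, 5.27, 5.20 and 5.06. Xaf1, a proapoptotic partner of XIAP, had 2.50, 2.27, 2.70 and 2.28, but its dimmer second probe gave -1.37 for P3 minus P1 where the first gave 0.20. Ifi44 stood near background, at -3.01 in P1, -3.51 in P3 and -3.49 in P4, and was not well above background in P2, at least 1.92-fold below P1, 1.36-fold below P3 and 1.37-fold below P4. All 8 measured genes of this group were lower in P4 than in P1 (median -0.46), where 58.8% of all genes were. However, the difference for Isg20 was -0.03.

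Parp9 and Dtx3l, whose products form an ADP-ribosylation complex, and Parp14, another ADP-ribosyltransferase, lie next to each other in the genome. Parp9 had levels of 2.91, 2.58, 2.65 and 2.76, Dtx3l had 3.79, 3.33, 3.34 and 3.37, and Parp14 had 4.05, 3.77, 4.18 and 4.0. P1 was highest for Parp9 and Dtx3l and P2 lowest for all 3 (21.1% of all genes), with differences of -0.33, -0.46 and -0.28 from P1.

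The 3 class I antigen processing members were lowest in P2, as were 21.1% of all genes. Tap1, a subunit of the peptide transporter, had 4.90, 4.35, 5.04 and 4.91, so that P2 was 1.47-fold below P1 and 1.62-fold below P3, and the second probe gave -0.43 for P2 minus P1 beside -0.56. Psmb9 and Psmb8, the immunoproteasome subunits that flank Tap1 in the genome, had 5.78, 5.34, 5.79 and 5.57, and 5.68, 5.49, 5.67 and 5.67. P4 minus P1 was 0.01 for Tap1, -0.01 for Psmb8 and -0.20 for Psmb9. The 12 other class I presentation genes were mostly lowest in P3, which held the lowest level of 8 (43.0% of all genes). P2 was lowest for 4 (21.1% of all genes). Against P1, 11 of the 12 were lower in P3 (57.6% of all genes), with a median of -0.30, against -0.10 over all genes. In P2, 11 were lower (60.1% of all genes), with a median of -0.13, against -0.06. Tap2 had the largest difference there (-0.54). In both comparisons 0 were 2-fold apart, where 19.5% and 7.28% of all genes were.

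**Figure D4:**
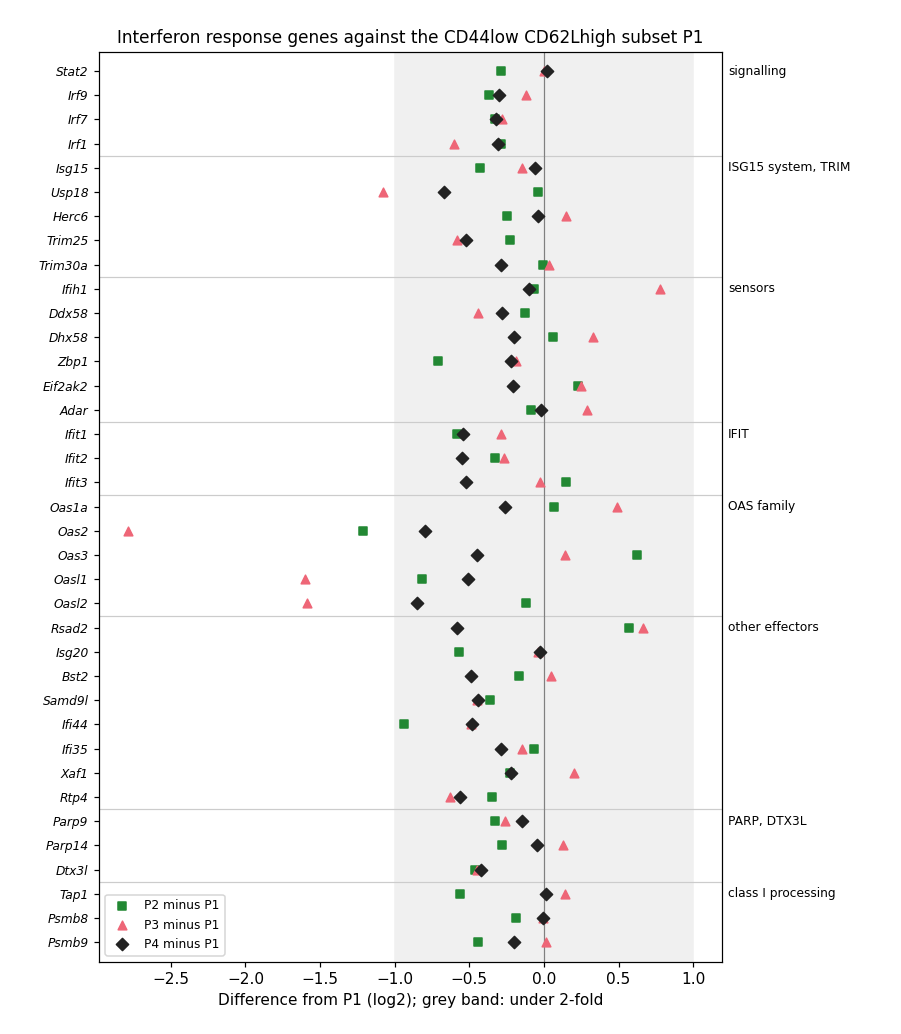
Difference of each of the 37 members from P1 (log2, x axis) in P2, P3 and P4, grouped by role, with the band of less than 2-fold in grey. All P4 points lie between -0.85 and 0.02, and the P3 points of Oas2, Oasl1, Oasl2 and Usp18 and the P2 point of Oas2 lie outside the band.

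Upstream of the members, the type I receptor was present in all subsets. Ifnar1 had levels of 3.65 in P1 and P2, 3.03 in P3 and 3.51 in P4, and Ifnar2 had 2.71, 3.21, 3.11 and 2.54. Among the kinases, Jak1 (6.18, 6.39, 6.12 and 5.88), Tyk2 (1.73, 1.96, 2.46 and 1.94) and Jak2 (2.34, 2.50, 3.14 and 2.59) stayed within 2-fold. Stat3, which dampens the response, had 4.36, 4.20, 4.50 and 4.57.

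The interferon gamma receptor differed far more than the type I receptor. Ifngr2, its signalling chain, had levels of 2.26 for P1, -1.0 for P2, -0.28 for P3 and 1.74 for P4, so that P2 was 9.59-fold and P3 5.82-fold below P1. Ifngr1, the binding chain, had 4.76, 5.70, 4.79 and 4.39. Ifng itself was lowest in P1, at 1.22, and stood at 5.20 in P2, 6.97 in P3 and 5.64 in P4. Of 14 type I interferon genes, Ifna9 and Ifnab were above background on all 4 arrays. Ifnb1, Ifna4, Ifna11, Ifna12, Ifna13 and Ifna16 were above it on none. All these genes, Ifna9 and Ifnab included, were named after their values were seen. Ifne was above background in P4 only, where its spot lay in a locally bright area.

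Of 58 further interferon-stimulated genes measured for P2 minus P1, 5 were at least 2-fold lower (2.52% of all genes). Only 1, Tdrd7, was higher (1.53), where 4.76% of all genes were. The 5 were the interferon-inducible GTPases Iigp1, Gbp6, Igtp, Gbp2 and Irgm2, the last pair named after their values were seen. Iigp1, which attacks the vacuoles of intracellular parasites, had levels of 3.54, 1.18, 1.86 and 2.90, and Igtp had 6.16, 5.05, 5.22 and 5.92. Ifngr2 had this same order, with P1 highest, P4 next and P2 lowest. In P4 minus P1, 0 of 59 such genes were 2-fold apart (7.2% of all genes). In that pair 44 were lower (58.8% of all genes), with a median of -0.21, against -0.07 over all genes.

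P3 minus P1 gave 8 of 60 further genes at least 2-fold higher, close to the 12.5% of all genes, and 1, Iigp1, lower (6.98% of all genes). The largest were Ifitm1 (at least 39.8-fold), Ifitm3 (18.3-fold), which block viral entry, and Ifi205 (17.1-fold), a DNA-binding HIN family gene. Of the other IRF factors, Irf8 stood at 1.17, 2.21, 4.90 and 3.18 and Irf5 at -2.38 in P2, 1.34 in P3 and -2.56 in P4, without being above background in P1; Irf8 is itself on the dendritic cell list, and its P1 spot lay in a locally bright area. Irf2 (1.74 to 2.31), Irf3 (5.14 to 5.36) and Irf4 (0.76 to 1.66) stayed within 2-fold. The antigen-presenting cell markers above were high on the same array, and their part in these P3 values was not tested. Of the feedback inhibitors, Socs1 was lower in P3 (2.80, against 3.88 in P1) and Trex1, a DNA exonuclease, higher (4.75, against 3.43), and of the sensors and adaptors Ikbke was lower (1.32, against 2.58).

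**Figure D5:**
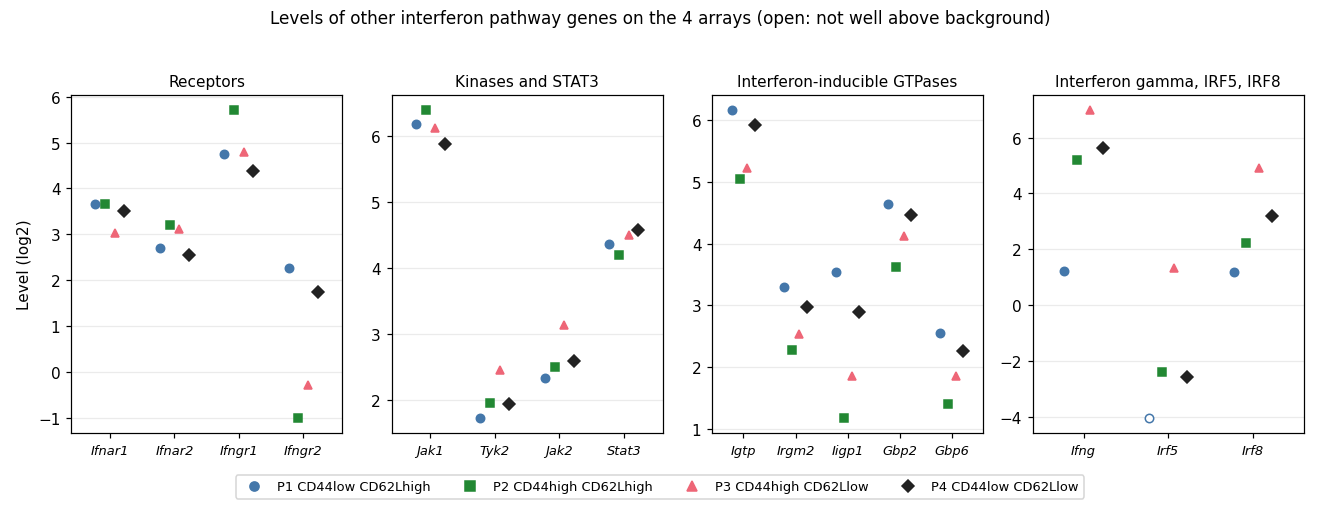
Levels (log2, y axis) of interferon receptors, kinases and Stat3, 5 interferon-inducible GTPases, and Ifng, Irf5 and Irf8 (x axis) in the 4 subsets; an open symbol is not well above background. Ifngr2 and the GTPases have P1 on top and P2 at the bottom, while Ifng, Irf5 and Irf8 have P1 at the bottom and P3 on top.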

How the data were processed

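Each of 4 single-colour Agilent arrays was hybridised with RNA of 1 sorted CD8 T cell subset. The deposited processed signals are spot intensities, background-subtracted and spatially detrended by Agilent Feature Extraction 11.0.1.1, per the file headers and the submitters' processing notes, and the authors did not scale them between arrays. Other deposited columns are flags of the scan (well above background, outlier). The authors also deposited a value table on a log2 scale, which lists 26188 probes; each column has the same median, 8.85. Its sorted values matched between arrays within 0.00062, its correlation with log2 processed signal was 0.9995 to 1.0 (r, across probes), and how it was made was not given in the sources used here.

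Outlier spots were left out, spots of a probe were averaged, and log2 signals were set relative to the array's 75th percentile. Probes were named by RefSeq accession (32994 of 56605, 58.3%) with a RefSeq gene list of GRCm38.p6, used for names and neighbours only. A gene entered a pair when above background on at least 1 array, a dimmer value being raised to the lowest level above background there. Sizes were counted at 2-fold, with no test. Alternatives were quantile normalization, a percentile over probes above background, normexp (limma 3.58.1, offset 50, on median spot and background signals, as mean spot signals were not at hand), the authors' values, other filters, the mean over probes, a 4-fold threshold, and, added after seeing the data, centring on the median of all genes. A spot was raised where it was 2-fold above every other array, and lay in a locally bright area where more of its neighbours within 32 position units were raised than a binomial chance of 1% allows. The counting of differences was tested on simulated data.

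All members and the receptor, kinase, STAT and IRF genes could be named, and from other lists the up to 4 genes with the largest difference in a pair. Some genes of these lists are not reported here. Members and lists were chosen with earlier results of these data known.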

Additional observations from a re-analysis of the deposited data

Results flagged for a closer look

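In 8 members the CD62Llow subset lay below the CD62Lhigh subset among CD44low cells (P4 minus P1) and above it among CD44high cells (P3 minus P2), each by more than spot noise, where 2.3% of 12814 genes did so. With 1 array per subset, the difference between the 2 contrasts was not tested. Opposite signs of any size were found in 23 of 37 members, compared with 31.5% of these genes. P4 minus P1 and P3 minus P2 were -0.54 and 0.29 for Ifit1, 0.83 apart. For Zbp1 they were -0.22 and 0.53, 0.75 apart, and for Bst2 -0.49 and 0.22, 0.71 apart. Oas1a had -0.26 and 0.42, 0.67 apart, with its P3 spot in a locally bright area. Psmb9 had -0.20 and 0.45, 0.65 apart, and Xaf1 had -0.22 and 0.42, 0.64 apart, but the second Xaf1 probe was below 0 in both (-0.91 and -0.35). Irf9 had -0.30 and 0.26, 0.55 apart, and Dhx58 had -0.20 and 0.27, 0.47 apart. The second probes of Zbp1 (-0.41 and 0.31) and Irf9 (-0.10 and 0.49) had the same signs as the first, that of Irf9 within spot noise for P4 minus P1. Antigen-presenting cell markers were higher on the P3 array than on the P2 array, and their part in these values was not tested.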

How the results depend on the processing

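Over 10 alternatives each, the members' median difference ranged from -0.29 to -0.19 in P4 minus P1, -0.29 to -0.22 in P2 minus P1, -0.15 to 0.05 in P3 minus P1, -0.01 to 0.05 in P4 minus P2, -0.22 to -0.05 in P4 minus P3 and 0.08 to 0.26 in P3 minus P2. The counts at least 2-fold apart kept within 1.5 times in 59 of 66 cases. With normexp background correction the count went from 2 to 0 in P4 minus P2 (Oas3 -0.84, Rsad2 -0.75) and from 3 to 1 in P4 minus P3 (Rsad2 -0.78, Oasl1 0.92). With the mean over a gene's probes it was 2 in P4 minus P3 (Rsad2 -0.83). At a 4-fold threshold the count was 0 in P4 minus P2, P4 minus P3, P2 minus P1 and P3 minus P2, and 1 (Oas2) in P3 minus P1, as fewer genes pass a larger size. The count of 4 in P3 minus P1 was 3 with normexp, with centring on all genes and without bright areas, each without Usp18. The count of 3 in P3 minus P2 was 2 with normexp (Usp18 -0.95), the authors' values and centring (Usp18 -0.99 in both). No member that was 2-fold apart changed sign under these alternatives. P4 minus P1 members lower than P1 numbered 29 to 35. No paired analysis was possible because each subset has 1 array.

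The number of arrays limits precision: animals, sorts and subsets cannot be told apart from a single array each. Single spots of members were read with no repeats (0 members had repeated spots), and members near background, Ifi44 and Rsad2, have wider spot noise. Probes of 1 gene differed in sign in 2 to 5 of 14 or 15 members per pair. Scaling moved the P3 minus P1 median across 0.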

Other observations

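Class I heavy chain genes, outside the members, were lower in P3 than in the other subsets. H2-K1 had levels of 8.95, 8.89, 8.32 and 8.89 from P1 to P4, and H2-Q4 had 7.25, 7.17, 6.42 and 7.03, so that P3 minus P1 was -0.63 and -0.83. B2m, the shared light chain, had 7.87, 7.81, 7.42 and 7.81. None of the 12 class I presentation genes (0) was 2-fold apart in any pair, where 7.2% to 19.5% of all genes were. Among the further interferon-stimulated genes, the largest differences between P4 and P1 were 0.87 for Tnfsf10, which encodes the death ligand TRAIL, -0.74 for the GTPase gene Gvin1 and -0.72 for Epsti1.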
